A study of Mus musculus with 13 samples.

Results

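The lysosomal enzymes and membrane proteins were followed here as 36 genes, chosen by function from the acid hydrolases, the cathepsins and the proteins of the lysosomal membrane. A probe set, the group of oligonucleotides that reports a transcript on an array, was assigned to 35 of them, out of 18193 genes with a probe set and 15370 genes tested. Cd63, a tetraspanin of late endosomes and lysosomes, was not analysed here. The 35 genes comprised 12 glycosidases, 4 sulfatases, 5 lipid and acyl hydrolases and saposins, 11 proteases and 3 membrane proteins. All 35 passed the filter on low values, being above the floor described with the processing on 4 or more of the 13 arrays.

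Lysosomes are acidic organelles in which hydrolases break down sugars, sulfated polysaccharides, lipids and proteins taken up by endocytosis, phagocytosis or autophagy. Most of the enzymes are tagged with mannose 6-phosphate and delivered by its receptors, the proton pump keeps the lumen acidic, and heavily glycosylated membrane proteins such as Lamp1 and Lamp2 line the organelle. Macrophages, which digest what they engulf, are known for abundant lysosomes and cathepsins, but nearly every cell expresses these genes, and Lyz2, the lysozyme of macrophages and neutrophils, was therefore used as a macrophage reference.

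Expression was measured on Affymetrix mouse genome arrays in cells sorted by FACS for CD31, an adhesion molecule of endothelium that is also found on platelets and some macrophages, from SKOV3ip1 tumors, a human ovarian cancer line. The labels name 3 groups of endothelial cells: resistant (n = 4), sensitive (n = 4) and control (n = 5), each array being a biological replicate. According to the methods of the study, luciferase-labeled cells were injected into female athymic nude mice (NCr-nu), which lack a thymus and so most T cells. The resistant and sensitive mice received B20, a murine monoclonal antibody against VEGF-A, by intraperitoneal injection, and were put in their groups by the bioluminescence of the growing tumor under treatment. Control mice received a control IgG. No animal ages are given, and because no label ties an array to an animal, p-values here cover the spread among the samples alone.

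The arrays of a group were not alike. Pecam1, which encodes CD31, averaged 3.08 ± 0.31 on resistant, 2.74 ± 0.35 on sensitive and 4.11 ± 2.24 on control arrays (log2 values, SD), and the median of 12 endothelial markers was 7.11 and 7.44 on control arrays 4 and 5 but between 2.54 and 4.28 on the other arrays, so endothelial markers were low on most of these arrays. The median of 17 macrophage markers was 9.20 to 10.32 on resistant arrays, 4.51, 5.40 and 5.07 on sensitive arrays 1, 2 and 3, 9.88 on sensitive array 4, and 8.06 to 10.35 on control arrays. Sensitive array 4 also had the largest difference between 3 prime and 5 prime probe sets of the Actb and Gapdh control transcripts (5.95, with 2.23 to 3.82 elsewhere), as RNA degradation gives. Sensitive array 3 carried B cell markers (list median 6.74, against at most 4.90 elsewhere), and sensitive arrays 1 and 2 had the highest medians of mesothelial markers (7.19 and 7.37). In such bulk samples, fewer cells of a type and less RNA per cell cannot be told apart.

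Many lysosomal genes carry a CLEAR-type E-box, the sequence TCACGTG on either strand, which is bound by the transcription factors TFEB, TFE3 and MITF. In promoter windows from RefSeq (GRCm38.p6), running from 250 bases before to 50 bases after each annotated gene start, this sequence occurred in 1237 of 32851 windows (3.77%) and in 10 of the 35 windows (28.6%) of the 32 lysosomal genes that matched the table. It contains the shorter E-box CACGTG, found in 7.15% of all windows and in 11 of the 35, and its palindromic form TCACGTGA was found in 0.974% and in 3. The 10 genes were Arsa, Ctsa, Ctsd, Gaa, Gla, Glb1, Lamp1, Lgmn, Naglu and Sgsh. Stretches of 7 of these promoters are printed 5′ to 3′ on the strand of the gene, in lower case with each match in capitals. The first 5 are of genes with a resistant minus sensitive log2 fold change above 1 and the last 2, Gaa and Sgsh, of genes with a value below 0.2. Those of Arsa, Ctsa and Naglu, with values of 0.82, 2.20 and 1.78, are not printed. Each printed stretch ends at or before the gene start.
Glb1: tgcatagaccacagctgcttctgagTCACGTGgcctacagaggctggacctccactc
Lgmn: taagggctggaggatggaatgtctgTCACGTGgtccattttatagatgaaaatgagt
Gla: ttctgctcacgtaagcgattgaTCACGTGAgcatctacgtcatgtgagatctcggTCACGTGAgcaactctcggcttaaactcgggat
Lamp1: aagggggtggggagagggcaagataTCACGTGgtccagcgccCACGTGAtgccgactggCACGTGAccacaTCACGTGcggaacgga
Ctsd: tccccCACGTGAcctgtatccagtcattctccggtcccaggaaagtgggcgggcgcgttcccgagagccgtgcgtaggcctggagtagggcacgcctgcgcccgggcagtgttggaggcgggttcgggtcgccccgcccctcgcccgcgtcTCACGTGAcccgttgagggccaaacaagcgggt
Gaa: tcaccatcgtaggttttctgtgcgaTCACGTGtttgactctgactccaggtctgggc
Sgsh: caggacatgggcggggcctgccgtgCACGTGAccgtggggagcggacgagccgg
These stretches lie at chr9:114401004-114401060 (plus strand) for Glb1, chr12:102439111-102439167 (minus strand) for Lgmn, chrX:134601168-134601255 (minus strand) for Gla, chr8:13159074-13159160 (plus strand) for Lamp1, chr7:142387894-142388077 (minus strand) for Ctsd, chr11:119267797-119267853 (plus strand) for Gaa and chr11:119355511-119355564 (minus strand) for Sgsh. Lamp1 held 4 matches within 62 bases before its start, Gla and Ctsd held 2 each, and the match of Glb1 began 49 bases before its start. The 10 genes with the sequence had a median resistant minus sensitive log2 fold change of 1.82 (range 0.10 to 2.58), and the 22 matched genes without it had 1.35 (range -0.61 to 2.28). Both ranges overlapped along most of their length, and Gaa and Sgsh, with the sequence, had values of 0.17 and 0.10, that of Gaa being the value of its reported probe set, while a second one gave 1.75. A match describes letters in the window, not a bound site.

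Taken as a group, the 35 genes were lowest on 3 of the 4 sensitive arrays. The median log2 value of the 35 genes was 8.77, 7.55, 8.02 and 8.43 on resistant arrays 1 to 4, 6.29, 6.08, 6.34 and 8.60 on sensitive arrays 1 to 4, and 8.02, 8.22, 7.51, 8.15 and 7.91 on control arrays 1 to 5. Sensitive arrays 1, 2 and 3 lay below every other array, and sensitive array 4 lay within the resistant range. Of the 35 genes, 30, 28 and 28 were below all 5 control arrays on sensitive arrays 1, 2 and 3, while sensitive array 4 had 2 such genes. Above all 5 control arrays were 20, 3, 6 and 12 genes on resistant arrays 1 to 4 and 12 genes on sensitive array 4. Each control array was also set against the other control arrays. Control arrays 1 to 5 then had 2, 4, 19, 1 and 9 genes below and 14, 3, 5, 12 and 0 genes above. These counts were not made over all genes.

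**Figure D1:**
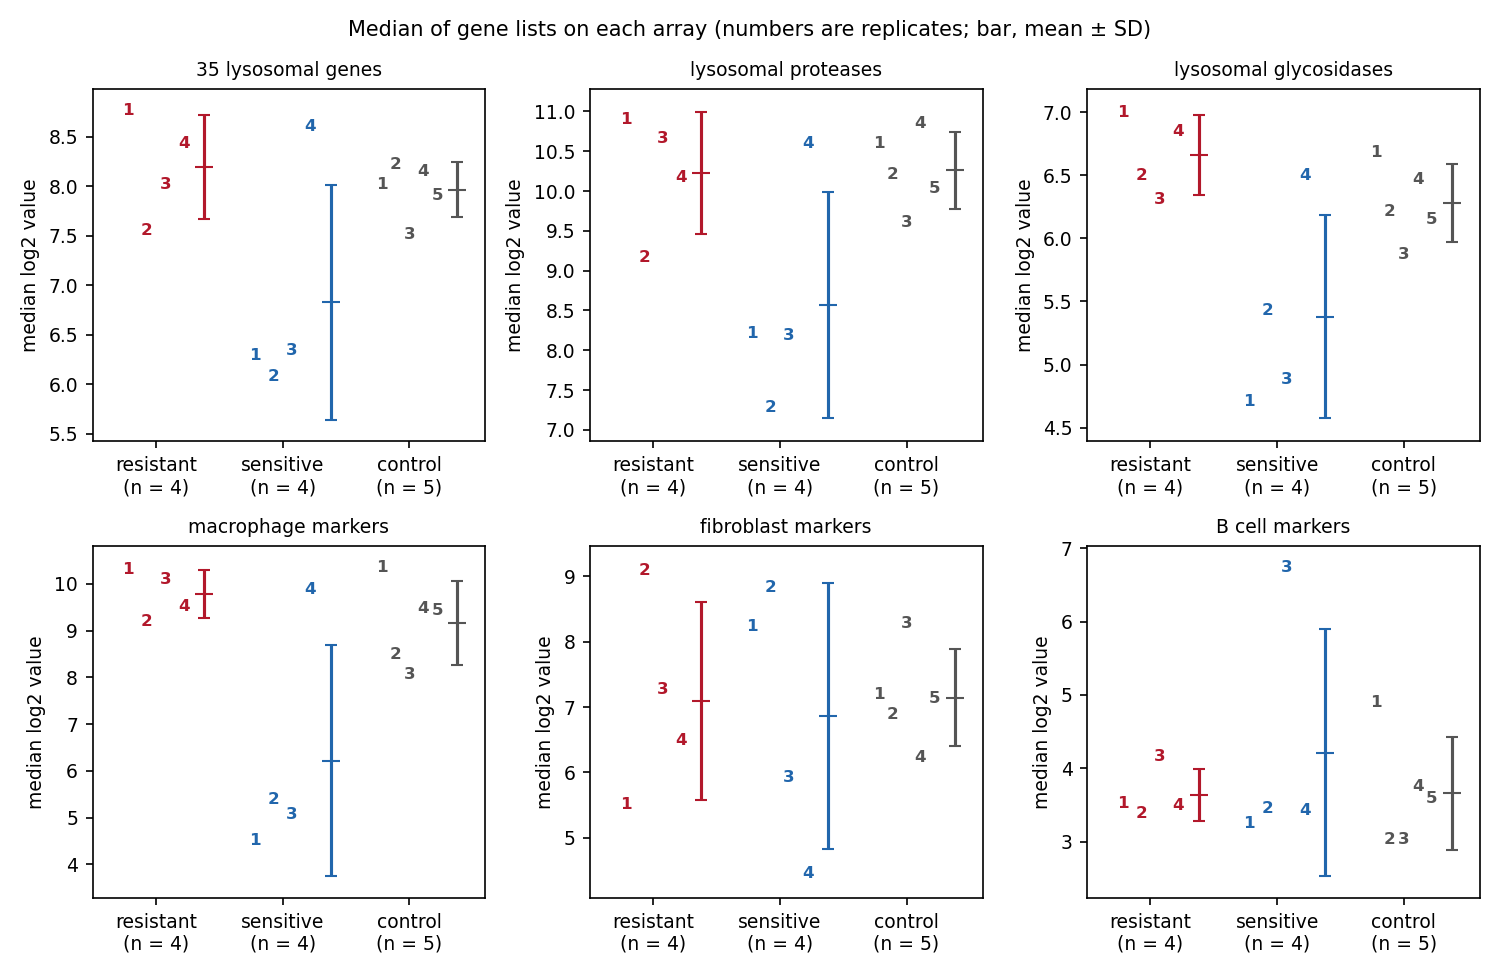
Array-wise medians of 6 gene lists (y axes, log2 values), with resistant, sensitive and control arrays side by side. Symbols are replicate numbers, and bars give group mean ± SD. On the first panel sensitive arrays 1, 2 and 3 sit between 6.08 and 6.34 and all other arrays at 7.51 or above, and the macrophage panel shows the same 3 arrays between 4.51 and 5.40.

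The comparison of resistant with sensitive arrays asked which lysosomal genes went with loss of the response to B20. The study describes taking endothelial cells when the response was maximal and again once tumors progressed. Loss of response and time under treatment therefore cannot be told apart here. The median log2 fold change of the 35 genes was 1.49, against -0.07 over all genes tested, and 33 of the 35 (94.3%) were positive, against 42.1% of all genes. By limma, 0 of the 35 passed the adjusted threshold of 0.05, as did 0% of all genes. At an unadjusted p under 0.05, 25 of the 35 (71.4%) were higher on resistant arrays, against 4.54% of all genes, and by the methods' t-test 10 of 35 were, against 1.89% of all genes. By limma the 25 became 15 without sensitive replicate 1 and 16 without sensitive replicate 2. Over all 15370 genes, 1087 at that threshold in either direction became 986 and 877. Without sensitive arrays 1, 2 and 3, which leaves 1 sensitive array, the median was -0.24. Resistant arrays lay above sensitive arrays without overlap for 4 genes (11.4%), against 0.976% of all genes: Glb1, Fuca1, Arsb and Gm2a. When all probe sets of a gene were averaged instead of taking the brightest, the median was 0.99.

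Macrophage markers moved with these values. All 17 macrophage markers had a positive resistant minus sensitive log2 fold change, with a median of 2.59, and their summed linear levels ran from 10590 to 23988 on resistant, 1307 to 24695 on sensitive and 12339 to 22208 on control arrays. Each of sensitive arrays 1, 2 and 3 had 1 of the 17 at the floor, and their sums were 1307, 1601 and 3580. The part of macrophage number in the lysosomal values was not tested.

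The comparison of sensitive with control arrays asked what went with a response to B20. The median over the 35 genes was -1.30, against 0.09 over all genes, and 32 (91.4%) were negative, against 41.6% of all genes. By limma 0 of the 35 passed after adjustment, as did 0% of all genes, while 21 (60%) were lower on sensitive arrays at an unadjusted p under 0.05, against 6.58% of all genes. By the methods' t-test 9 of 35 were, against 4.72% of all genes. By limma the 21 became 12 without sensitive replicate 1, 12 without sensitive replicate 2 and 11 without control arrays 4 and 5. Those control arrays had the highest endothelial markers, and without them the median was -1.17. Over all 15370 genes, 1828 at that threshold in either direction became 1516, 1210 and 1039. Groups did not overlap for 1 gene, Gm2a (2.86%), against 1.59% of all genes that lay lower without overlap. With all probe sets averaged, the median was -0.74. The 17 macrophage markers were all negative here (median -2.42), 10 of 10 mesothelial markers were positive (median 1.23) and 12 of 12 endothelial markers were negative (median -1.49). Their part in the lysosomal values was not tested. The sensitive arrays are shared by this comparison and the previous one.

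Between resistant and control arrays the 35 genes differed little. Their median was 0.21, against 0.03 over all genes, and 26 (74.3%) were positive, against 54.3% of all genes. By limma 0 of the 35 and 0% of all genes passed after adjustment. Glb1 and Arsb were the only 2 of the 35 (5.71%) that were higher on resistant arrays at an unadjusted p under 0.05, against 0.982% of all genes, and by the methods' t-test the count was also 2, against 3.31% of all genes. The same 2 genes were above every control array on all 4 resistant arrays, against 1.31% of all genes. The macrophage markers had a median of -0.05 here, and 12 of 12 endothelial markers were negative (median -0.91).

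**Figure D2:**
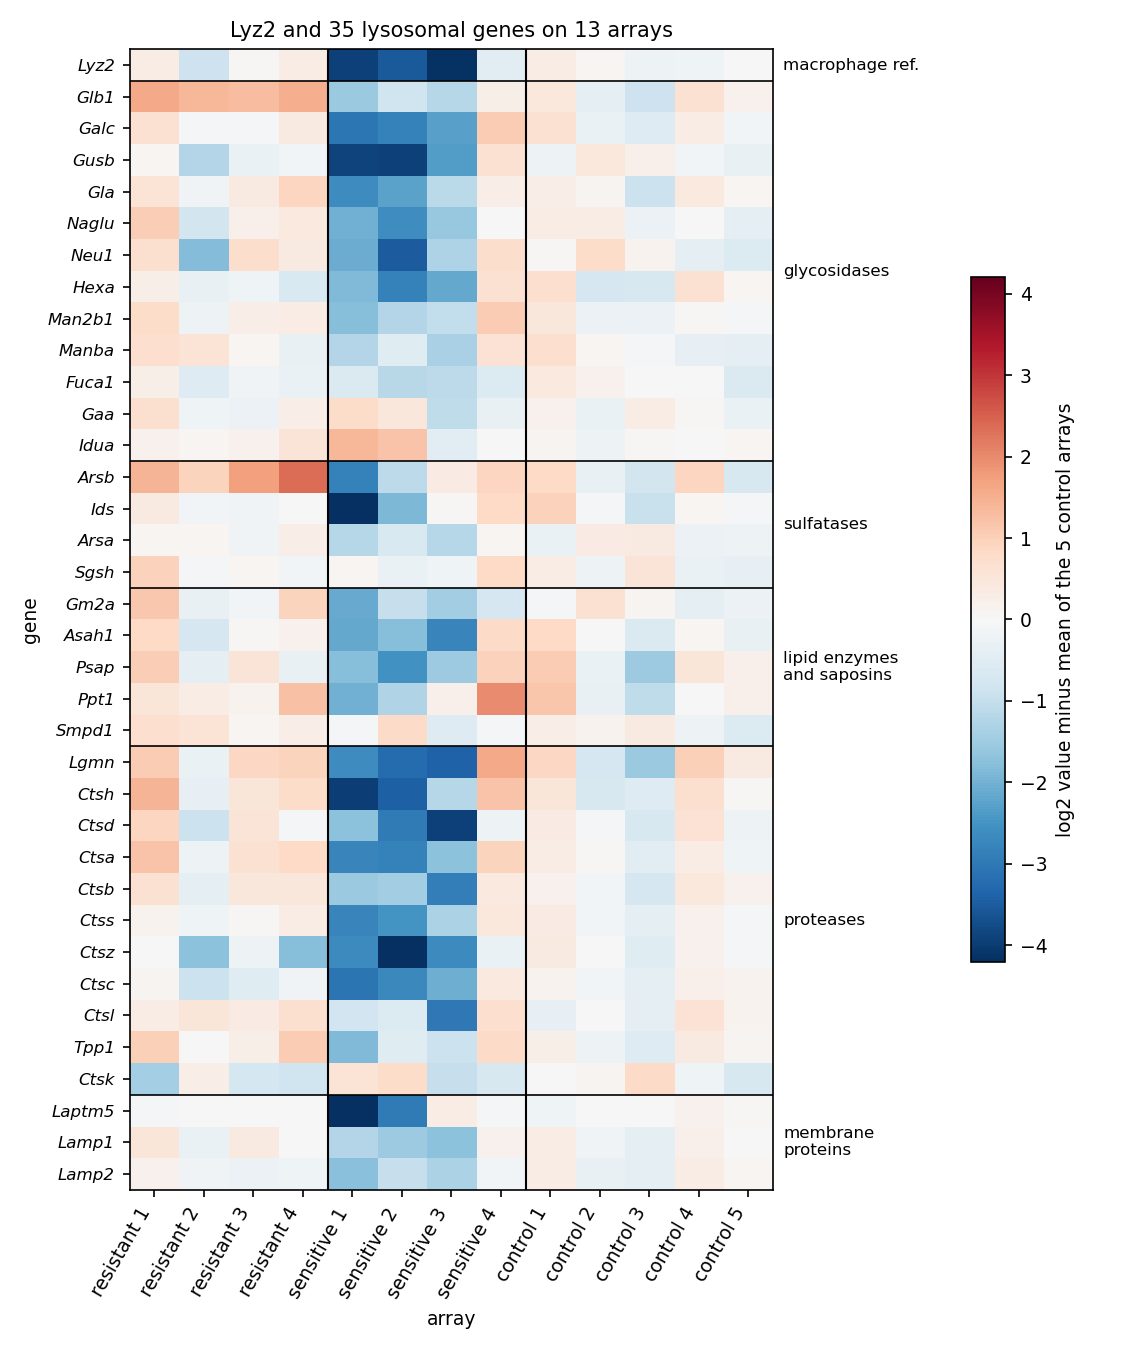
Lyz2 and the 35 lysosomal genes (rows, grouped by role) on 13 arrays (columns, resistant, sensitive, control), colored by log2 value minus the mean of the 5 control arrays. Sensitive arrays 1, 2 and 3 are blue for 30, 28 and 28 genes that lie below every control array, and Glb1 and Arsb are red on all 4 resistant arrays.

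Glycosidases trim sugars from glycoproteins, glycolipids and polysaccharides. On average 11 of 12 were higher on resistant than on sensitive arrays, with a median log2 fold change of 1.43. By limma 8 were higher at an unadjusted p under 0.05, against 4.54% of all genes. Glb1, the beta-galactosidase that is widely used as a marker of senescent cells, had log2 values of 7.75, 7.55, 7.48 and 7.69 on resistant arrays, 4.59, 5.32, 4.97 and 6.40 on sensitive arrays and 6.62, 5.75, 5.29, 6.82 and 6.35 on control arrays. All 4 resistant arrays lay above all sensitive and all control arrays, and their own spread was the narrowest of the 3 groups (SD 0.13, against 0.78 on sensitive and 0.63 on control arrays). Resistant and sensitive arrays differed by a log2 fold change of 2.30 (SE 0.42, 4.92-fold), with an exact two-sided permutation p of 0.0286, the smallest that 70 splits allow, and an adjusted p of 0.165 by limma. Against control arrays it was 1.45 (SE 0.39, 2.74-fold), with an exact permutation p of 0.0159, the smallest that 126 splits allow, and an adjusted p of 1.00 by limma. Over all alternatives the resistant minus control value of Glb1 stayed between 1.12 and 1.73, and its adjusted p between 0.076 and 1.00.

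The other glycosidases had resistant minus sensitive log2 fold changes of 1.998 for the galactosylceramidase Galc, 1.998 for the beta-glucuronidase Gusb, 1.86 for the alpha-galactosidase Gla, 1.78 for the heparan-sulfate glucosaminidase Naglu, 1.52 for the sialidase Neu1, 1.33 for the beta-hexosaminidase subunit Hexa, 1.05 and 0.89 for the mannosidases Man2b1 and Manba and 0.68 for the fucosidase Fuca1. Gusb had the most negative sensitive minus control value of the glycosidases (-2.38), with 4.27, 4.23 and 5.79 on sensitive arrays 1, 2 and 3, 8.79 on sensitive array 4 and 7.85 to 8.58 on control arrays. Galc lay at 2.53, 2.73 and 3.29 on the same 3 sensitive arrays, near the floor of 2.01, and at 6.64 on sensitive array 4. Fuca1 separated resistant (6.63 to 7.41) from sensitive arrays (6.02 to 6.59) by a narrow gap on its reported probe set. Its other probe sets, with means of 5.67, 3.21 and 2.10, differed by only 0.14, 0.08 and 0.07 between these groups. Gla and Naglu were those of these glycosidases with TCACGTG in the promoter window.

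The sulfatases remove sulfate groups from polysaccharides and sulfolipids. Arsb, which acts on dermatan sulfate, had log2 values of 6.91, 6.39, 7.18 and 7.80 on resistant arrays, 2.61, 4.38, 5.82 and 6.36 on sensitive arrays and 6.31, 5.16, 4.71, 6.38 and 4.78 on control arrays. All resistant arrays lay above all sensitive and control arrays, but narrowly. Resistant arrays differed by a log2 fold change of 2.28 (SE 0.70) from sensitive and 1.60 (SE 0.66, 3.04-fold) from control arrays, with exact permutation p of 0.0286 and 0.0159 and adjusted p of 0.510 and 1.00 by limma. The other probe sets of Arsb were near the floor (means 2.38 and 2.32) and differed by 0.54 and -0.18 between resistant and sensitive arrays. Without sensitive replicate 1, the sensitive minus control value of Arsb was 0.05, against -0.67 with it.

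Ids, the sulfatase lost in Hunter syndrome, differed by 1.32 between resistant and sensitive arrays but was far from uniform in the sensitive group, with 2.63, 4.92, 6.85 and 7.64 on arrays 1 to 4. Arsa, which acts on sulfatide, was lower on sensitive arrays 1, 2 and 3 (4.60, 5.13 and 4.57) than on any control array (5.50 to 6.17) and differed by 0.82 between resistant and sensitive arrays. Sgsh, the heparan sulfamidase, had 5.55, 4.54, 4.66 and 4.46 on resistant, 4.67, 4.30, 4.40 and 5.42 on sensitive and 4.89, 4.37, 5.14, 4.29 and 4.24 on control arrays. Its groups overlapped throughout, with log2 fold changes of 0.10 (SE 0.36) between resistant and sensitive and 0.11 (SE 0.34) between sensitive and control arrays.

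The lipid enzymes and their activators had a median resistant minus sensitive log2 fold change of 1.42, with 5 of 5 positive. Gm2a, the activator protein that presents gangliosides to beta-hexosaminidase, had 9.80, 8.33, 8.54 and 9.60 on resistant arrays, 6.53, 7.68, 7.18 and 7.95 on sensitive arrays and 8.57, 9.29, 8.75, 8.25 and 8.40 on control arrays. All 4 sensitive arrays, array 4 included, lay below every resistant and every control array. Gm2a was the only gene of the 35 for which this held. The log2 fold change was 1.73 (SE 0.41) between resistant and sensitive arrays (exact permutation p = 0.0286, adjusted p = 0.389 by limma) and -1.32 (SE 0.39) between sensitive and control arrays (exact permutation p = 0.0159, adjusted p = 0.260 by limma). A second probe set, with a mean of 4.68, differed by 0.98 and -1.16 in these comparisons.

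Asah1, the acid ceramidase, differed by 1.56 between resistant and sensitive arrays, the prosaposin gene Psap by 1.42, the palmitoyl thioesterase Ppt1 by 0.83 and the acid sphingomyelinase Smpd1 by 0.36. Ppt1 lay at 8.12 on sensitive array 4, above every other array (at most 7.39). Smpd1 ranged from 4.89 to 5.50 on resistant, 4.26 to 5.62 on sensitive and 4.21 to 5.18 on control arrays, with all 3 groups overlapping.

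By limma 10 of 11 proteases were higher on resistant than on sensitive arrays at an unadjusted p under 0.05. Of all genes, 4.54% were. Lower on sensitive than on control arrays at that threshold were 8 of 11, against 6.58% of all genes. The median log2 fold changes of the proteases were 1.62 and -1.60. Ctsd, the main aspartic protease of lysosomes, had 11.18, 9.36, 10.82 and 10.17 on resistant arrays, 8.54, 7.28, 6.34 and 10.05 on sensitive arrays and 10.59, 10.21, 9.60, 10.85 and 10.04 on control arrays. Only sensitive array 4 reached the range of the other groups, and resistant array 2 lay below every control array. Its log2 fold change was 2.33 (SE 0.65, 5.02-fold) between resistant and sensitive arrays (exact permutation p = 0.0571, adjusted p = 0.449 by limma) and -2.21 (SE 0.61, 4.61-fold lower) between sensitive and control arrays (exact permutation p = 0.0476, adjusted p = 0.249 by limma).

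Ctsz, a carboxypeptidase, had 10.90, 9.17, 10.66 and 9.08 on resistant, 8.21, 6.51, 8.21 and 10.60 on sensitive and 11.25, 10.91, 10.35, 11.05 and 10.82 on control arrays. Its p was the smallest of the 35 genes between sensitive and control arrays (log2 fold change -2.49, SE 0.64, exact permutation p = 0.0317, adjusted p = 0.219 by limma). Ctsz also lay below the control range on resistant arrays 2 and 4, and its resistant minus control value was -0.92 (SE 0.64). Other probe sets of Ctsz gave -1.18 and -0.98 in that comparison.

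Ctsc, the dipeptidyl peptidase that activates granule proteases, had 11.61, 10.59, 10.98 and 11.36 on resistant, 8.43, 8.79, 9.45 and 11.90 on sensitive and 11.63, 11.40, 11.13, 11.70 and 11.63 on control arrays. Sensitive arrays 1, 2 and 3 lay below all others, and sensitive array 4 was the highest array of all. The log2 fold change was 1.49 (SE 0.57) between resistant and sensitive arrays and -1.86 (SE 0.54) between sensitive and control arrays, with adjusted p of 0.611 and 0.260 by limma.

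The other proteases spanned resistant minus sensitive log2 fold changes of 2.58 for the asparaginyl endopeptidase Lgmn, which was the highest value of the 35, 2.43 for the aminopeptidase Ctsh, 2.20 for Ctsa, the protective protein that holds Glb1 and Neu1 in a complex, 1.66 for Ctsb, 1.62 for Ctss, which trims the MHC class II invariant chain, 1.38 for Ctsl and 1.19 for the tripeptidyl peptidase Tpp1. Lgmn lay at 6.42, 5.82 and 5.68 on sensitive arrays 1, 2 and 3 and at 10.65 on sensitive array 4, against 7.51 to 10.08 on control arrays. Ctsl was lowest on sensitive array 3 (8.56), while sensitive array 1 had 10.76, just below the control range of 11.15 to 12.18.

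Ctsk, the collagen-degrading cathepsin of osteoclasts that fibroblasts also express, ran the other way, with 3.58, 5.28, 4.28 and 4.17 on resistant, 5.59, 5.78, 4.05 and 4.34 on sensitive and 4.99, 5.11, 5.82, 4.83 and 4.33 on control arrays. Its highest values were on control array 3 and sensitive arrays 1 and 2, and the groups overlapped. The log2 fold change was -0.61 (SE 0.48) between resistant and sensitive arrays (exact permutation p = 0.257). The fibroblast marker list had its highest medians on resistant array 2 (9.10), sensitive arrays 1 and 2 (8.23 and 8.83) and control array 3 (8.28), and its part in the Ctsk values was not tested.

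Idua, the glycosidase that starts the breakdown of heparan and dermatan sulfate, was the only other gene of the 35 with a negative resistant minus sensitive value (-0.29, SE 0.38). It had 5.09, 4.98, 5.08 and 5.42 on resistant, 6.29, 6.08, 4.45 and 4.90 on sensitive and 5.02, 4.67, 4.93, 4.87 and 4.97 on control arrays. Sensitive arrays 1 and 2, where most of the genes were low, were the highest for Idua. A second probe set of Idua, with a mean of 3.27, differed by 0.23 between resistant and sensitive arrays. The sign for Idua thus depended on the probe set. Gaa, the acid glucosidase that degrades glycogen, had 7.23, 6.37, 6.30 and 6.85 on resistant, 7.32, 7.02, 5.48 and 6.24 on sensitive and 6.75, 6.29, 6.87, 6.59 and 6.28 on control arrays, with overlapping groups and a log2 fold change of 0.17 (SE 0.39) between resistant and sensitive arrays. A second probe set of Gaa differed by 1.75 and -1.36 between resistant and sensitive and between sensitive and control arrays, so the value of this gene depended on the probe set.

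**Figure D3:**
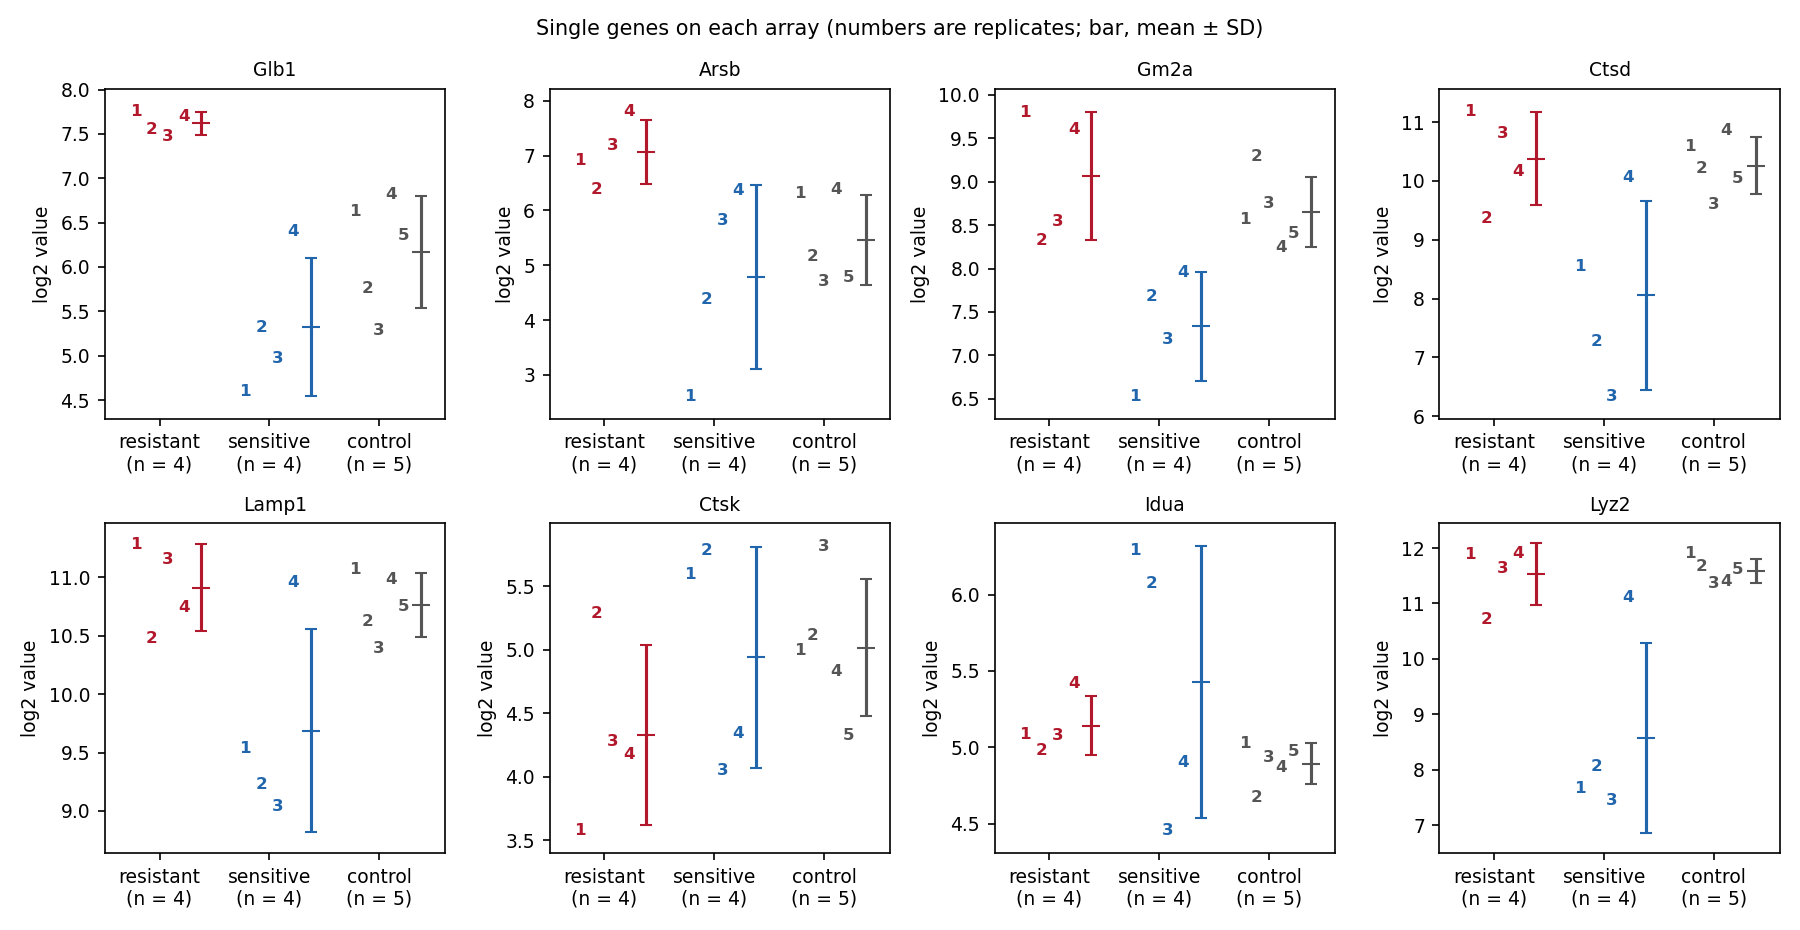
Log2 values of 7 lysosomal genes and Lyz2 on each array (y axes), by group. Symbols are replicate numbers, and bars give group mean ± SD. For Glb1 and Arsb the 4 resistant arrays lie above all others, for Gm2a the 4 sensitive arrays lie below all others, and for Ctsd, Lamp1 and Lyz2 sensitive array 4 is the highest of the sensitive arrays.

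The membrane proteins were low on the same arrays. Lamp1, the most used marker of lysosomal membrane, had 11.28, 10.47, 11.15 and 10.74 on resistant arrays, 9.54, 9.22, 9.04 and 10.95 on sensitive arrays and 11.07, 10.62, 10.39, 10.98 and 10.75 on control arrays. Resistant and control arrays overlapped, and only sensitive array 4 lay within their range. Its log2 fold change was 1.23 (SE 0.38, 2.34-fold) between resistant and sensitive arrays (exact permutation p = 0.0857, adjusted p = 0.518 by limma) and -1.07 (SE 0.36) between sensitive and control arrays (exact permutation p = 0.0635, adjusted p = 0.299 by limma). Lamp2, which also serves chaperone-mediated autophagy, differed by 0.95 and -1.05. Laptm5, a membrane protein of blood cells, differed by 1.72 and -1.74, with 6.79 and 8.10 on sensitive arrays 1 and 2 but 11.39 on sensitive array 3, the array with B cell markers, above every other array (10.90 to 11.24 on control arrays).

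Sensitive array 4 decided whether any of these differences passed the test. Without it, 21 of the 35 genes rose on resistant over sensitive arrays by limma, against 2.47% of all genes that rose, and the median log2 fold change was 2.15. Galc (log2 fold change 2.94, SE 0.36, adjusted p = 0.000647), Ctsa (3.05, SE 0.38, adjusted p = 0.000681) and Ctsc (2.25, SE 0.31, adjusted p = 0.00139) had the smallest adjusted p by limma, and Lgmn the largest fold (13.4-fold, adjusted p = 0.00249). Lamp1 (1.65, adjusted p = 0.00453) and Ctsd (2.99, adjusted p = 0.00684) passed as well. Between sensitive and control arrays 18 of the 35 fell without array 4, against 3.53% of all genes that fell, with a median of -1.95, led by Ctsc (-2.61, adjusted p = 0.000263) and Gusb (-3.39, adjusted p = 0.000414) by limma.

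All 18 genes that fell against control arrays were among the 21 that rose on resistant arrays, as both comparisons share the 3 sensitive arrays left, and the other 3 were Glb1, Tpp1 and Arsb. The 14 genes that passed in neither comparison were Ctsl, Psap, Arsa, Neu1, Manba, Laptm5, Ppt1, Ids, Fuca1, Ctsk, Idua, Sgsh, Smpd1 and Gaa. Without sensitive arrays 1, 2 and 3, which leaves 1 sensitive array whose spread is taken from the other groups, the medians turned to -0.24 between resistant and sensitive arrays, with 12 of 35 positive, and to 0.46 between sensitive and control arrays, with 26 of 35 positive. In the same fit Glb1 and Lamp1 differed by 0.23 and 0.19 between the remaining sensitive array and control arrays.

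**Figure D4:**
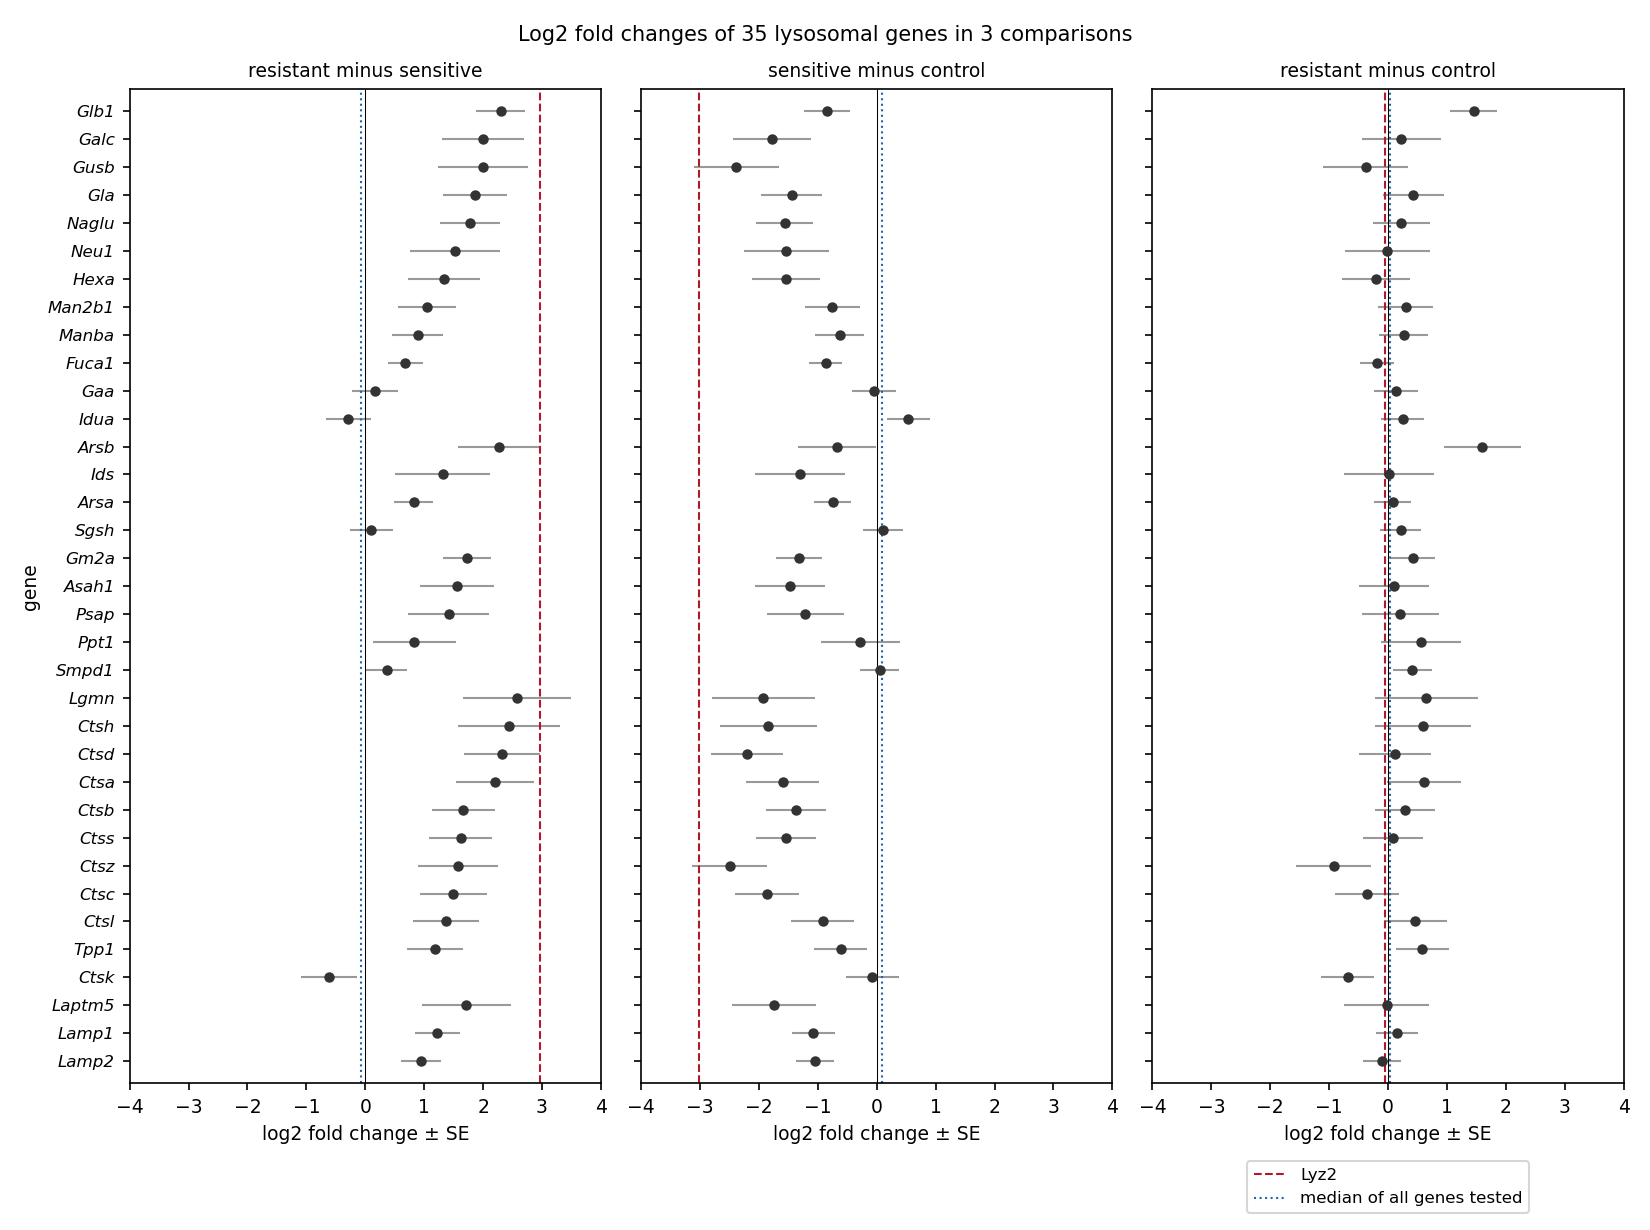
Log2 fold changes ± SE (x axes) of the 35 lysosomal genes (y axis, grouped by role) for resistant minus sensitive, sensitive minus control and resistant minus control arrays, with dashed lines at the value of Lyz2 and dotted lines at the median of all genes tested. In the first 2 panels all 35 points lie on the near side of the Lyz2 lines at 2.97 and -3.02, and in the third Glb1 and Arsb lie highest at 1.45 and 1.60.

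Set against the macrophage reference, the lysosomal genes differed by less. Lyz2 had 11.88, 10.71, 11.63 and 11.90 on resistant arrays, 7.65, 8.05, 7.45 and 11.11 on sensitive arrays and 11.90, 11.67, 11.36, 11.40 and 11.61 on control arrays. Sensitive arrays 1, 2 and 3 lay far below all others, and sensitive array 4 lay below every control array but within the resistant range. The log2 fold change was 2.97 (SE 0.63) between resistant and sensitive arrays (exact permutation p = 0.0571, adjusted p = 0.307 by limma) and -3.02 (SE 0.59) between sensitive and control arrays (exact permutation p = 0.0159, adjusted p = 0.180 by limma).

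On sensitive arrays 1, 2 and 3 Lyz2 was 3.93, 3.54 and 4.14 below the control mean on the log2 scale, while the median gene of the 35 was 1.86, 1.54 and 1.32 below it. On sensitive array 4 Lyz2 differed by -0.47 from the control mean and the median gene by 0.46. On resistant arrays 1 to 4 Lyz2 differed by 0.30, -0.87, 0.05 and 0.31 and the median gene by 0.64, -0.19, 0.09 and 0.29. Resistant array 2, the lowest resistant array for Lyz2, was also the lowest for the lysosomal genes.

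When the log2 value of Lyz2 was subtracted on each array, all 35 genes had a negative resistant minus sensitive value (median -1.47, against -3.04 over all genes) and a positive sensitive minus control value (median 1.72, against 3.11 over all genes). By limma 17 of the 35 (48.6%) fell relative to Lyz2 in resistant minus sensitive, against 96.7% of all genes, and 23 (65.7%) rose relative to Lyz2 in sensitive minus control, against 96.5% of all genes. In both comparisons fewer of the 35 than of all genes were told apart from Lyz2, and their medians lay about midway between Lyz2 and the other genes. The spread of Lyz2 itself enters every such value. Here limma took the variance of each gene wholly from a trend over all genes with their average level, not from the gene itself. With a variance of its own for each gene the counts were 27 and 29, against 14510 and 14543 of all 15369 genes in either direction. With the mean of the macrophage list in place of Lyz2 they were 6 and 8, against 13927 and 13163 of all genes. Without sensitive arrays 1, 2 and 3 they were 0 and 0.

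Closest to Lyz2 were Lgmn (-0.39), Ctsh (-0.53) and Ctsd (-0.64) in resistant minus sensitive, and Ctsz (0.53), Gusb (0.64) and Ctsd (0.81) in sensitive minus control, with adjusted p between 0.262 and 0.623 by limma. Farthest from Lyz2 were Ctsk (-3.58), Idua (-3.25) and Sgsh (-2.86) in resistant minus sensitive, with adjusted p of 0.000410 to 0.00195 by limma. Their exact permutation p was 0.0571, 0.0571 and 0.0286. Their own log2 fold changes were -0.61, -0.29 and 0.10, so these values mostly reflect the difference in Lyz2 itself. Between resistant and control arrays 0 of the 35 and 0% of all genes were called relative to Lyz2 by limma. An unadjusted p under 0.05 was reached by 1 of the 35 and by 54 of all 15369 genes. The median of the 35 was 0.27. Glb1, Arsb and Ctsa stood 1.51, 1.66 and 0.66 above Lyz2 in that comparison, each with an exact permutation p of 0.0159. By limma their unadjusted p was 0.0625, 0.0447 and 0.369.

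Other lysosomal genes outside the 35 had smaller medians of the same sign. Of 80 tested, 63 were positive between resistant and sensitive arrays, with a median log2 fold change of 0.46. After adjustment by limma 0 passed. At an unadjusted p under 0.05 by limma, 14 were higher and 0 lower, against 4.54% of all genes that were higher. Between sensitive and control arrays 63 were negative, with a median of -0.45. At that unadjusted threshold 21 were lower and 1 higher, against 6.58% of all genes that were lower. Between resistant and control arrays the median was 0.06.

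Other hydrolases (18 tested) had a median of 0.70 between resistant and sensitive arrays. Lipa, the acid lipase that frees cholesterol from its esters, had 7.07, 5.86, 6.91 and 6.87 on resistant, 3.21, 5.07, 4.43 and 6.12 on sensitive and 6.79, 6.55, 6.08, 7.16 and 6.57 on control arrays, with log2 fold changes of 1.97 (SE 0.51) and -1.92 (SE 0.49) in resistant minus sensitive and sensitive minus control. The dipeptidyl peptidase Dpp7 differed by 1.59 and -1.83. Other membrane proteins (18 tested) had a median of 0.51, with 2.49 for the cholesterol exporter Npc1 and 2.28 for Slc11a1, a metal transporter of phagosomes that lay at 4.88, 4.50 and 4.85 on sensitive arrays 1, 2 and 3 and at 9.19 on sensitive array 4.

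The proton pump subunits (15 tested) were positive in 14 of 15 cases (median 0.47). By limma 2 of the 15 were higher at an unadjusted p under 0.05, against 4.54% of all genes. These were the catalytic subunit Atp6v1a (1.53, SE 0.57) and the accessory subunit Atp6ap2 (0.68, SE 0.30). Genes that deliver enzymes to lysosomes (15 tested) had a median of 0.06, with 8 positive and 7 negative. Their 2 lowest p-values were those of the mannose 6-phosphate receptor M6pr (1.17, SE 0.43) and of the sorting adaptor Gga2 (-0.85, SE 0.45).

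Regulators of lysosomal genes (10 tested) had a median of 0.13. Mitf, a factor that binds the E-box printed above, had 7.16, 6.60, 6.36 and 6.99 on resistant, 3.51, 3.39, 3.75 and 7.02 on sensitive and 7.11, 7.17, 6.46, 6.73 and 6.04 on control arrays, and the related Tfec was at the floor on sensitive arrays 1, 2 and 3. Their log2 fold changes between resistant and sensitive arrays were 2.36 (SE 0.65) and 1.75 (SE 0.72), with adjusted p of 0.449 and 0.657 by limma. Tfeb and Tfe3 of the same family differed by -0.66 (SE 0.44) and 0.50 (SE 0.39). The cathepsin inhibitors (4 tested) had a median of 0.39 and 0 at an unadjusted p under 0.05, with 0.80 (SE 0.54) for cystatin C (Cst3) and 0.35 (SE 0.38) for cystatin B (Cstb).

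Most genes had more than 1 probe set, which served as a check on the choice of probe set. Probe sets of a gene read the same RNA on each array, so their agreement cannot check the samples. The share that agreed over all genes was not counted. The 35 genes had 83 probe sets, and 24 genes had several. Of 25 further probe sets with a mean log2 value over 4, 23 had the same sign as the reported probe set between resistant and sensitive arrays and 22 between sensitive and control arrays. The 4 probe sets of Lamp2 all gave positive values in the first comparison (0.95 to 2.91), as did the 4 of Ctsb with means over 4 apart from the reported one (0.32 to 2.92). Probe sets of Man2b1 (-0.20) and Laptm5 (-0.70) with lower means went against the reported ones.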

How the data were processed

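The deposited table held values of 45101 probe sets on 13 single-color arrays. Per the labels the authors prepared biotinylated cRNA by the Affymetrix protocol and used MAS5, version not given, while the study methods name Illumina bead chips and BRB-ArrayTools. The deposited values were read as log2 intensities from their range. The log base and the normalization by the authors are unstated, and base 2 was assumed for each fold. Trimmed linear means differed by 1.73-fold between arrays, so values were quantile normalized and floored at the 30th percentile (2.01). Each gene took its probe set with the highest mean. Of 34958 probe sets with 1 symbol, 34754 matched by Entrez identifier. Genes above the floor on 4 of 13 arrays were tested with limma 3.58.1 in R 4.3.3 (lmFit, eBayes with trend, all 3 groups, two-sided, Benjamini-Hochberg over 15370 genes), and single values by exact two-sided permutation. The number of arrays limits precision.

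Named genes were the member with the smallest p of each role group, the 3 smallest p of each comparison with and without Lyz2 subtracted, and the 2 smallest p of each further list. Members and lists were chosen with earlier results of these data known. The steps were tested on simulated data. Alternatives covered scaling, floor, filter, probe sets, variance model, replicate block and single arrays.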

Additional observations from a re-analysis of the deposited data

Results flagged for a closer look

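Within the sensitive group, array 4 stood apart by a gap that made up most of the range of the group, for Lyz2 (11.11, against 7.65, 8.05 and 7.45 on sensitive arrays 1, 2 and 3; gap over range 0.835) and for the median of the 35 lysosomal genes (8.60, against 6.29, 6.08 and 6.34; gap over range 0.896). Of 39 combinations of a gene or the median with a group, these 2 exceeded the 95% critical value, and chance marks about 1 in 20. The same array had the largest difference between 3 prime and 5 prime probe sets (5.95), and the part of RNA quality in these values was not tested.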

How the results depend on the processing

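Medians of the 35 genes kept their sign under every scaling, floor, filter, probe set and variance alternative tried. They reversed without sensitive arrays 1, 2 and 3, to -0.24 (resistant minus sensitive) and 0.46 (sensitive minus control), as did Lamp1 (-0.0398 and 0.19), and, in sensitive minus control, Glb1 (0.23), Arsb (0.90), Ctsc (0.40), Galc (1.07) and Gusb (0.64), and, in resistant minus sensitive, Ctsc (-0.76), Ctsz (-0.65), Galc (-0.84) and Gusb (-1.02). Leaving out single arrays gave medians of 1.21 to 2.15, -1.95 to -1.02 and 0.06 to 0.35 for resistant minus sensitive, sensitive minus control and resistant minus control, and 0 to 21, 0 to 18 and 0 genes called, with the upper counts without sensitive replicate 4. Arsb ranged from -1.20 to 0.0528 in sensitive minus control. Over all genes 0 were called in each comparison, 428 and 696 without sensitive replicate 4, 34 in resistant minus control with array weights, and at most 7 in any other setting.

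Relative to Lyz2, averaging all probe sets moved the medians to -1.98 and 2.28, and leaving out sensitive arrays 1, 2 and 3 to -0.66 and 0.93. The 17 genes called in resistant minus sensitive became 27 with array weights, 27 with a variance of its own for each gene (chosen after seeing the data), 7 with only the 2 groups fitted, 6 with the macrophage mean and 0 without sensitive arrays 1, 2 and 3, and 10 to 27 when single arrays were left out. The 23 of sensitive minus control became 8 with the macrophage mean, 0 without those 3 arrays and 18 to 30 when single arrays were left out. Array weights called 3 in resistant minus control, against 0. Of all 15369 genes, 15116 were called in resistant minus sensitive with array weights and 14092 with only the 2 groups fitted. With the macrophage mean, 13927 were called in resistant minus sensitive and 13163 in sensitive minus control. With single arrays left out, the counts over all genes were 14211 to 15147 and 14167 to 15119 in these 2 comparisons. In resistant minus control, array weights called 1228 of all genes. The causes were not tested. Deviations of arrays with the same replicate number correlated between -0.43 and 0.53. The labels do not say what a replicate number marks. These values cannot settle whether such arrays share an animal, litter or day, since arrays of a group also differed in cell type markers. A replicate block gave medians of 1.49, -1.31 and 0.15 with 0 genes called. Relative to Lyz2 it called 15 in resistant minus sensitive and 18 in sensitive minus control, against 14742 and 14624 of all 15369 genes.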
